A study of Urocitellus parryii with 24 samples.

Results

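ADH4, ALDH2, and ALDH9A1 are the alcohol and aldehyde dehydrogenases followed here in the liver of the arctic ground squirrel (AGS). These 3 genes were taken by name from the 1329 genes that carry a symbol among the 9600 cDNA probes of the array, and each is measured by 1 probe (gene8173 for ADH4, gene3828 for ALDH2, and gene0718 for ALDH9A1). Symbols were available only for genes that the study had selected by a test over 3 states on these same arrays. The differences of the 3 genes between states are therefore no independent evidence that such genes differ. Comparisons of stages use parts of the same arrays, so they are not free of that selection either. The same holds for comparisons of the sets of membranes, which largely separate the non-hibernating animals from the hibernating ones.

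Liver RNA of 24 animals was amplified, labelled with 33P, and hybridized to nylon membranes, 1 membrane per animal. In torpor (T) there were 9 animals, 4 early and 5 late in a torpor bout. In arousal episodes (A) there were 8 animals, 4 soon after rewarming (early arousal) and 4 several hours later (late arousal). The non-hibernating controls were 7 animals, which the labels call summer active and the paper post-reproduction (P). All were wild-caught AGS kept in captivity, with no transgene in any group and no drug treatment other than the anesthetic named below. Hibernating animals carried an abdominal temperature transmitter, lived under a short photoperiod, and had no food through hibernation. P animals were warm, past reproduction, and in molt. T animals were decapitated without anesthesia, and A and P animals under isoflurane. Food and photoperiod cannot be told apart from state in comparisons with P, nor anesthesia from state in comparisons with T. Whole liver was measured, so fewer hepatocytes and less RNA per hepatocyte cannot be told apart either.

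Alcohol and aldehyde dehydrogenases carry out oxidations that follow each other. An alcohol dehydrogenase turns an alcohol or retinol into an aldehyde, an aldehyde dehydrogenase turns the aldehyde into an acid, and both pass the electrons to NAD. Liver is the main organ for this work, which covers dietary ethanol and aldehydes formed from lipids, amines, and amino acids. ADH4 encodes the pi class alcohol dehydrogenase, a cytosolic enzyme of liver that oxidizes ethanol at high concentrations, longer alcohols, and retinol. ALDH2 encodes the mitochondrial enzyme that clears acetaldehyde and aldehydes of lipid peroxidation. ALDH9A1 encodes a cytosolic enzyme that oxidizes gamma-trimethylaminobutyraldehyde, a step of carnitine synthesis, and gamma-aminobutyraldehyde from polyamines.

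Values are log2 levels, that is, the log2 of the background-subtracted median signal of a spot over the median of that difference on its array. A log2 level of 0 is the median probe of the array. The median signal of an array was 54.1 to 132 intensity units, with a middle value of 108 in A, 79.5 in T, and 76.1 in P. Across the 24 arrays the signal of the ADH4 spot was 54.0 to 89.2 times its local background, that of ALDH2 24.2 to 69.9 times, and that of ALDH9A1 16.9 to 46.5 times. None of these spots was flagged or saturated on any array. The clones for ADH4 and ALDH9A1 came from liver cDNA libraries and that for ALDH2 from a heart library. A spotted cDNA can bind transcripts of close relatives, and the deposited files hold no probe sequence, so each value stands for the probe assigned to that gene. The membranes came from 2 sets, named A1 and A2 in the scanner files. A1 filters held all 9 T arrays, 7 A arrays, and 2 P arrays, while A2 filters held 5 P arrays and 1 A array, late arousal 04-30. With state in the model, 20.1% of 9596 probes differed between A2 and A1 filters, so the changes of the 3 genes between states are also given with filter set as a block in the model and on A1 filters alone, where 2 P arrays remain.

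ALDH2 was the gene of the 3 that differed most between states, with its lowest levels in arousal. In A the lowest, median, and highest log2 levels were 2.15, 2.99, and 3.41, in T they were 3.23, 4.18, and 4.58, and in P they were 4.29, 4.47, and 5.28. Every A array lay below every P array. The mean was 2.85 ± 0.48 (SD, n = 8) in A, 4.02 ± 0.41 (SD, n = 9) in T, and 4.64 ± 0.36 (SD, n = 7) in P. ALDH2 was 3.45-fold lower in A than in P, a log2 change of -1.79 ± 0.22 (SE) with an adjusted p of 1.47e-05 from limma. Of all probes tested, 8.47% were called between A and P (adjusted p under 0.05), and the groups did not overlap for 0.893% of the 9407 probes measured on every array.

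The fall of ALDH2 in A was also seen within filter sets, with a single A array on A2. With filter set as a block the log2 change was -1.56 (adjusted p = 0.00101 from limma), where 2.71% of probes were called. On A1 filters alone it was -1.62 (adjusted p = 0.0195), where 0.876% were called. On A2 filters the single A array stood at 3.29 and the 5 P arrays between 4.29 and 5.28.

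Torpor levels of ALDH2 lay between those of arousal and those of P. ALDH2 was 2.25-fold higher in T than in A (log2 change 1.17 ± 0.20 SE, limma adjusted p = 0.00687), and 0.469% of probes were called in this comparison. Of the 9 T arrays, 8 were above every A array, and the exception was late torpor 04-49 at 3.23. Nearly all arrays of this comparison were on A1 filters, and on those alone the change was 1.24 (adjusted p = 0.0120, with 1.38% of probes called), against 1.22 (adjusted p = 0.00532, with 1.29% called) with the block. Relative to P, ALDH2 in T was at -0.62 ± 0.21 (SE, adjusted p = 0.0590), which did not pass the threshold although 9.86% of probes were called. All 9 T arrays were below the P mean. With the block the change between T and P was -0.33 (adjusted p = 0.764, with 0.969% called), and on A1 filters alone it was -0.38 (adjusted p = 0.854, with 0.896% called), with a 95% interval of -1.04 to 0.28. This comparison passed the threshold without early arousal 04-10 (adjusted p = 0.0492), late arousal 04-30 (0.0499), late torpor 04-06 (0.0442), or P 2000-13 (0.0404).

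**Figure D1:**
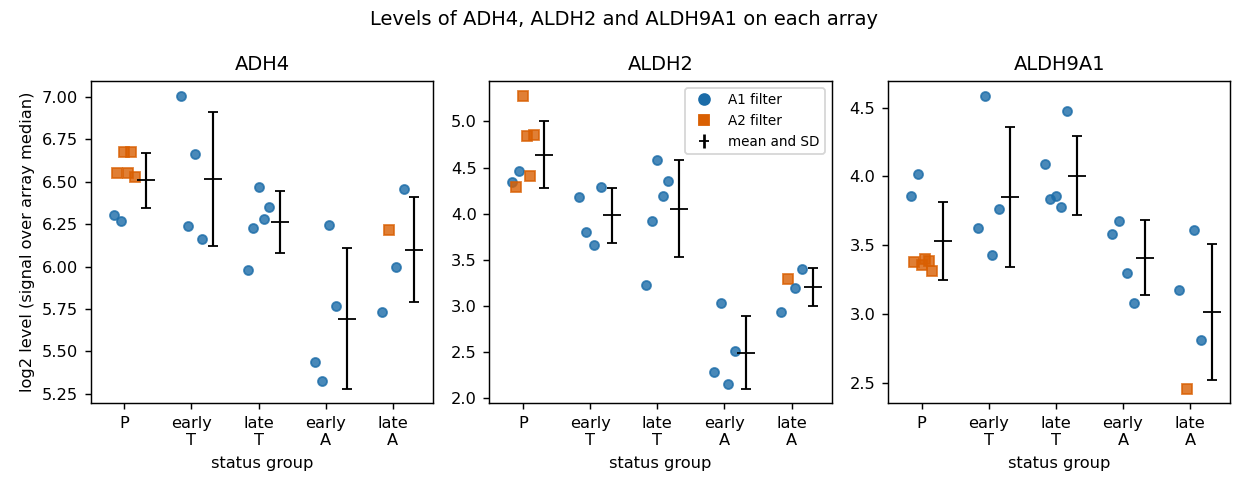
Each point is the log2 level of 1 gene on 1 array (y axis, signal over the array median) in the 5 status groups (x axis), with circles for A1 and squares for A2 filters, and the bars give the mean and SD of each group. The y axes differ between panels and do not start at 0. ALDH2 is lowest in early arousal, between 2.15 and 3.04, and all its P arrays lie at or above 4.29.

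Over the torpor and arousal cycle, ALDH2 passed the test at the step from late torpor to early arousal. In late torpor the 5 arrays stood at 3.23 (04-49), 3.92 (04-38), 4.58 (04-06), 4.19 (20-39), and 4.36 (04-36). In early arousal the 4 arrays stood at 2.28 (04-84), 3.04 (04-21), 2.15 (04-10), and 2.51 (04-43). No early arousal array reached the lowest array of late torpor. ALDH2 was 2.95-fold lower in early arousal, a log2 change of -1.56 ± 0.26 (SE, limma adjusted p = 0.00535), in a comparison where 0.667% of probes were called and 5.73% did not overlap. All of these arrays were on A1 filters, so the filter set has no part in this difference, and the call was kept without any 1 array (adjusted p 0.00138 to 0.0328). After quantile normalization, which gives every array the same distribution, the change was -1.15 (adjusted p = 0.0756).

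The other steps of the cycle passed no test for ALDH2, and the steps were not tested against each other. In late arousal the 4 arrays stood at 2.93 (04-72), 3.29 (04-30), 3.19 (04-31), and 3.41 (2000-22), of which 3 were above every early arousal array. The change from early to late arousal was 0.71 (95% interval 0.15 to 1.27, adjusted p = 0.518 from limma). In early torpor the 4 arrays stood at 4.18 (04-81), 3.81 (04-15), 3.66 (04-16), and 4.29 (2000-43), all above late arousal in a comparison where 4.5% of probes did not overlap, and the change from late arousal to early torpor was 0.78 (95% interval 0.22 to 1.33, adjusted p = 0.410). Late and early torpor differed by 0.07 (95% interval -0.45 to 0.60, adjusted p = 0.998). In each of these 3 comparisons 0% of probes were called by limma, with 748, 773, and 458 probes at an unadjusted p under 0.05 in the order given. Against P, ALDH2 was lower in early arousal by a log2 change of -2.14 (adjusted p = 2.59e-05, with 8.86% of probes called) and in late arousal by -1.43 (adjusted p = 0.00250, with 1.01% called). For early arousal the change was -1.96 (adjusted p = 0.00123, with 1.83% called) with the block and -1.91 (adjusted p = 0.00833, with 0.542% called) on A1 filters alone. For late arousal it was -1.32 (adjusted p = 0.0105, with 1.15% called) with the block, and the call was lost on A1 filters alone (-1.23, adjusted p = 0.171, with 0.0939% called). The order of the group means was early arousal 2.50, late arousal 3.21, early torpor 3.98, late torpor 4.06, and P 4.64, and no neighbours in this order passed the test (adjusted p = 0.124 for late torpor and P).

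On levels scaled by the array median, ADH4 was lower in A than in P, as was ALDH2, but by less. Its spot was in the top 2% of signals on every array, between the 98.2 and 99.4 percentile. The median percentile was 99.0 in A, 98.9 in T, and 99.0 in P, so the rank of ADH4 on its array was alike across states. In A the lowest, median, and highest log2 levels were 5.33, 5.88, and 6.46, in T they were 5.98, 6.28, and 7.01, and in P they were 6.27, 6.55, and 6.67. Of the 8 A arrays 7 were below every P array, and late arousal 2000-22 at 6.46 was the exception. The mean was 5.90 ± 0.40 (SD, n = 8) in A, 6.38 ± 0.30 (SD, n = 9) in T, and 6.51 ± 0.16 (SD, n = 7) in P.

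ADH4 was 1.53-fold lower in A than in P, a log2 change of -0.61 ± 0.17 (SE, limma adjusted p = 0.0271). The call was lost with filter set as a block (-0.42, adjusted p = 0.397), on A1 filters alone (-0.44, adjusted p = 0.637), and after quantile normalization, where the change was -0.06 (95% interval -0.41 to 0.30, adjusted p = 0.879). The brightest probes as a whole were lower in A: the 98th percentile of log2 levels on an array was 5.15 ± 0.20 (SD, n = 8) in A, 5.59 ± 0.16 (SD, n = 9) in T, and 5.66 ± 0.12 (SD, n = 7) in P. The call was also lost without early arousal 04-84 (-0.55, adjusted p = 0.0593), early arousal 04-21 (-0.53, 0.0557), P 20-52 (-0.58, 0.0592), P 2000-10 (-0.60, 0.0520), or P 98-79 (-0.58, 0.0561). Between T and P the ADH4 change was -0.13 (95% interval -0.47 to 0.21, adjusted p = 0.657), 0.10 with the block (adjusted p = 0.931), and 0.087 on A1 filters alone (adjusted p = 0.980). Between T and A it was 0.48 ± 0.16 (SE, adjusted p = 0.149), with all 9 T arrays above the A mean and 3 of them above every A array, and 0.52 with the block as well as on A1 filters alone (adjusted p = 0.0842 and 0.128).

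Within the cycle, ADH4 had its lowest levels in early arousal, with arrays at 5.44 (04-84), 5.33 (04-21), 6.25 (04-10), and 5.77 (04-43). Late torpor arrays stood at 5.98 (04-49), 6.23 (04-38), 6.47 (04-06), 6.28 (20-39), and 6.35 (04-36), and 3 of the 4 early arousal arrays were below all of them. The change of ADH4 from late torpor to early arousal was -0.57 ± 0.21 (SE, limma adjusted p = 0.222) and was 0.04 after quantile normalization. Late arousal arrays stood at 5.73, 6.21, 6.00, and 6.46, and early torpor arrays at 7.01, 6.24, 6.66, and 6.16, so both groups overlapped their neighbours. Early arousal was below P by -0.81 (adjusted p = 0.0133), while late arousal was at -0.41 (adjusted p = 0.337). The call for early arousal was lost with the block (-0.63, adjusted p = 0.233) and on A1 filters alone (-0.59, adjusted p = 0.456). The group means ran from early arousal 5.69 through late arousal, late torpor at 6.26, and P at 6.51 to early torpor at 6.52, and no neighbours in this order passed the test.

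ALDH9A1 was not called against P, and its mean over all arrays was highest in torpor. On A1 filters alone, the mean was 3.94 in both T (n = 9) and P (n = 2). In A the lowest, median, and highest log2 levels were 2.46, 3.24, and 3.68, in T they were 3.43, 3.83, and 4.59, and in P they were 3.32, 3.39, and 4.02. Of the 9 T arrays 7 were above every A array. The mean was 3.21 ± 0.42 (SD, n = 8) in A, 3.94 ± 0.38 (SD, n = 9) in T, and 3.53 ± 0.28 (SD, n = 7) in P. ALDH9A1 was 1.65-fold higher in T than in A, a log2 change of 0.72 ± 0.18 (SE) whose adjusted p of 0.0612 from limma was above the threshold. It passed with filter set as a block (0.64, adjusted p = 0.0423) and without late arousal 04-31 (0.78, adjusted p = 0.0418), was 0.62 (adjusted p = 0.0840) on A1 filters alone, and was 0.41 (adjusted p = 0.535) after quantile normalization.

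The P levels of ALDH9A1 followed the filter set. The 2 P arrays on A1 filters stood at 3.86 (2000-13) and 4.02 (20-55), and the 5 on A2 filters at 3.38 (2000-2), 3.36 (20-52), 3.40 (2000-10), 3.39 (98-79), and 3.32 (04-78). The single A array on an A2 filter, at 2.46, was the lowest of all 24. With state in the model, ALDH9A1 was lower on A2 filters by a log2 change of -0.68 ± 0.21 (SE, limma adjusted p = 0.0235). It was the only one of the 3 genes to pass this test, in which 20.1% of 9596 probes were called. ADH4 and ALDH2 differed between filter sets by 0.33 (adjusted p = 0.283) and 0.40 (adjusted p = 0.310), higher on A2.

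Comparisons of ALDH9A1 with P therefore moved with the block. Between T and P the change was 0.41 (adjusted p = 0.171 from limma), but -0.08 with the block (95% interval -0.53 to 0.37, adjusted p = 0.950) and -0.00 on A1 filters alone (95% interval -0.57 to 0.57). Between A and P it was -0.32 (adjusted p = 0.311), then -0.72 (adjusted p = 0.0589) with the block, and -0.62 (adjusted p = 0.422) on A1 filters alone. After quantile normalization the change between A and P turned to 0.06 (adjusted p = 0.905).

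**Figure D2:**
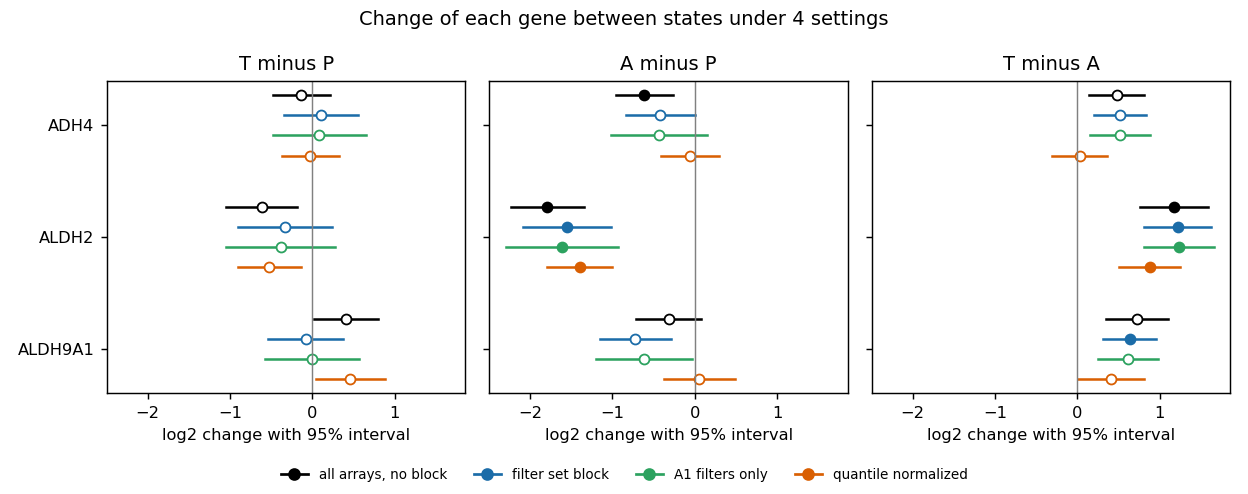
Points give the log2 change of each gene (y axis) between states with its 95% interval (x axis) in 4 settings, filled where the adjusted p from limma is under 0.05. ALDH2 is filled in all 4 settings for A minus P and T minus A, ADH4 only for A minus P with no block, and ALDH9A1 only for T minus A with the block.

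By stage, ALDH9A1 stood in early arousal at 3.58 (04-84), 3.68 (04-21), 3.30 (04-10), and 3.08 (04-43), all below late torpor, whose arrays stood at 4.09 (04-49), 3.83 (04-38), 3.86 (04-06), 3.77 (20-39), and 4.47 (04-36). Of all probes, 5.73% did not overlap in this comparison. The change was -0.60 (95% interval -1.11 to -0.08, adjusted p = 0.299 from limma), and -0.14 after quantile normalization. Late arousal arrays stood at 3.18 (04-72), 2.46 (04-30), 3.61 (04-31), and 2.82 (2000-22), with a mean of 3.02, and early torpor arrays at 3.62 (04-81), 4.59 (04-15), 3.43 (04-16), and 3.76 (2000-43), with a mean of 3.85. The change from late arousal to early torpor was 0.83 (95% interval 0.29 to 1.38, adjusted p = 0.365). Unlike for ALDH2 and ADH4, the mean of ALDH9A1 was lower in late than in early arousal (-0.39, adjusted p = 0.759), with a 95% interval of -0.94 to 0.15. Without late arousal 04-30, the A array on an A2 filter, the late arousal mean was 3.20 and the difference -0.21. The group means ran from late arousal 3.02 through early arousal 3.41, P 3.53, and early torpor 3.85 to late torpor 4.01, and no neighbours in this order passed the test.

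Over all arrays, ALDH2 changed between states relative to ADH4 and to ALDH9A1, but no such comparison passed on A1 filters alone. The difference of 2 log2 levels on the same array is free of the scaling of that array, and its change between states says only that the genes changed unequally. The 9 comparisons below were tested by exact permutation of the arrays between states (2-sided, with Benjamini-Hochberg adjustment over the 9). ALDH2 relative to ADH4 was -1.87 ± 0.32 (SD, n = 7) in P, -2.35 ± 0.43 (SD, n = 9) in T, and -3.05 ± 0.52 (SD, n = 8) in A. From P to A it fell by 1.18 on the log2 scale (exact p = 3.11e-04, adjusted p = 0.00280), so ALDH2 was lowered more than ADH4. From A to T it rose by 0.69 (exact p = 0.00708, adjusted p = 0.0159), and on A1 filters alone by 0.71 (exact p = 0.0103, adjusted p = 0.0928), where the call was lost. From P to T it fell by 0.48 (exact p = 0.0277, adjusted p = 0.0499), at the threshold, and 11 of the 24 arrays, left out in turn, took it past 0.05, up to 0.112 without P 20-52. On A1 filters the fall from P to A was also 1.18, with an exact p of 0.0278, the smallest that 7 against 2 arrays can give, and an adjusted p of 0.125, and that from P to T was 0.47 (exact p = 0.164, adjusted p = 0.295).

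ALDH9A1 relative to ALDH2 was -1.11 ± 0.55 (SD, n = 7) in P, -0.09 ± 0.57 (SD, n = 9) in T, and 0.36 ± 0.75 (SD, n = 8) in A. It was higher than in P by 1.02 in T (exact p = 0.00227, adjusted p = 0.00682) and by 1.47 in A (exact p = 0.00218, adjusted p = 0.00682). On A1 filters the gap to P was 0.378 in T (exact p = 0.491, adjusted p = 0.736) and 0.998 in A (exact p = 0.111, adjusted p = 0.250), where the smallest exact p that 2 P arrays allow is 0.0182 in T and 0.0278 in A. Between T and A it changed by -0.45 (exact p = 0.180, adjusted p = 0.232). ALDH9A1 relative to ADH4 passed in none of the 3 comparisons of states (adjusted p 0.0987 to 0.460).

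**Figure D3:**
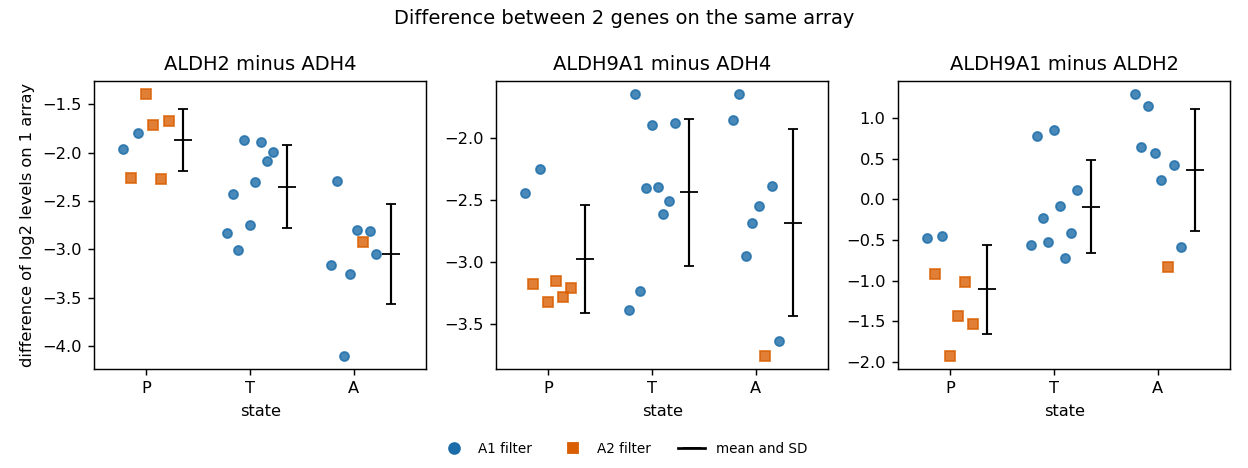
Each point is the difference of the log2 levels of 2 genes on 1 array (y axis) by state (x axis), with circles for A1 and squares for A2 filters and bars for the mean and SD. The height of a panel depends on the probes and has no meaning by itself. ALDH2 minus ADH4 falls from a mean of -1.87 in P to -3.05 in A, while ALDH9A1 minus ALDH2 has its lowest P arrays on A2 filters.

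One more gene of the dehydrogenase families had a symbol, ALDH7A1, which encodes the enzyme for aminoadipic semialdehyde in lysine breakdown. Of 27 genes listed for the families, 4 could thus be followed. ALDH7A1 levels ranged from 1.77 to 3.01 in A, with a median of 2.24, from 2.31 to 3.52 in T, with a median of 3.19, and from 2.60 to 3.96 in P, with a median of 3.20. It was lower in A than in P by a log2 change of -0.93 ± 0.23 (SE, limma adjusted p = 0.0117), and by -1.19 (adjusted p = 0.0140) with filter set as a block, but the call was lost on A1 filters alone (-1.08, adjusted p = 0.183). After quantile normalization its change was -0.64 (adjusted p = 0.0943). Between T and P the change of ALDH7A1 was -0.24 (adjusted p = 0.513) and -0.56 (adjusted p = 0.517) with the block, and between T and A it was 0.69 (adjusted p = 0.109).

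Between A and P with no block, ADH4, ALDH2, and ALDH7A1 were called lower and ALDH9A1 did not pass. The median log2 change of the 4 genes was -0.77, against -0.05 over all probes and -0.27 over all genes with a symbol, of which 38.5% were called. With the block ALDH2 and ALDH7A1 passed, and on A1 filters ALDH2 alone. After quantile normalization, where 6% of all probes and 26.9% of genes with a symbol were called, ALDH2 alone of the 4 passed and the median was -0.35 against -0.13 over genes with a symbol. Between T and A the changes of the 4 genes were all above 0, with a median of 0.71 against 0.05 over all probes and 0.19 over genes with a symbol, of which 2.33% were called, and ALDH2 alone passed. After quantile normalization this median was 0.43 against 0.11 over genes with a symbol. Between T and P none passed, where 47.3% of genes with a symbol were called, and the median was -0.19 against -0.02 over all probes and -0.05 over genes with a symbol.

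Genes that make or remove the substrates of these enzymes went both ways. Of 18 such genes, 6 had a symbol, and CAT, the peroxisomal catalase that can also oxidize ethanol, fell in both states, by -1.20 in T (adjusted p = 0.00260 from limma) and by -1.97 in A (adjusted p = 1.76e-05) relative to P. MAOB, a mitochondrial monoamine oxidase that produces aldehydes, was lower in A by -1.25 (adjusted p = 0.00599), and ABAT, the transaminase of gamma-aminobutyrate, by -1.16 (adjusted p = 0.0275). CYP2E1, the microsomal ethanol oxidase, was higher in T than in P by 0.90 (adjusted p = 0.00884). SAT1 and SAT2, spermidine/spermine acetyltransferase family genes, were higher in T by 1.16 (adjusted p = 0.00176) and 0.70 (adjusted p = 0.0207). With the block, CAT and ABAT in A were still called (-1.62, adjusted p = 0.00161, and -1.54, adjusted p = 0.0288), MAOB was not (adjusted p = 0.150), and none of the changes in T were called (adjusted p 0.245 to 0.802). On A1 filters alone, 0 of the 6 were called in either state.

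Of 21 genes listed for other carbonyl reducing and conjugating enzymes 8 had a symbol, of which 5 were lower in T and 7 lower in A than in P, and 0 were higher in either, with median log2 changes of -0.80 and -1.30. The share called among all genes with a symbol was 47.3% in T and 38.5% in A. With the block 2 of the 8 were lower in T and 5 in A, against 3.46% and 9.78% of genes with a symbol called, and on A1 filters alone 2 in each, against 2.78% and 3.01%. AOX1, an aldehyde oxidase of the cytosol, was lower by -1.58 in T (adjusted p = 0.00101 from limma) and by -1.995 in A (adjusted p = 7.47e-05), and with the block by -1.92 (adjusted p = 0.00696) and -2.28 (adjusted p = 5.17e-04). AKR1C1 and AKR1C3, aldo-keto reductases of steroids and other carbonyls, were lower in T by -1.30 (adjusted p = 0.00750) and -1.42 (adjusted p = 0.00482) and in A by -1.48 (adjusted p = 0.00364) and -1.56 (adjusted p = 0.00284). The calls in T were lost with the block (adjusted p = 0.109 and 0.131), while those in A were kept (0.0251 and 0.0327), and on A1 filters alone neither was called in either state (adjusted p 0.0511 to 0.288). AKR1C genes are close relatives that share sequence, so their probes may not be separate measurements. AKR7A3, an aflatoxin aldehyde reductase, was lower in T by -0.83 (adjusted p = 0.00392), and by -1.15 (adjusted p = 0.00693) with the block. GSTA3, a glutathione S-transferase, was lower in A than in P by -1.60 (adjusted p = 2.98e-05) and higher in T than in A by 1.04 (adjusted p = 0.0117), and the latter was 0.69 (adjusted p = 0.116) after quantile normalization.

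Of 24 retinoid genes 3 had a symbol. RDH13, a mitochondrial retinol dehydrogenase family member, was lower than in P by -0.98 in T (adjusted p = 0.0231 from limma) and by -0.93 in A (adjusted p = 0.0381), and with the block by -0.37 (adjusted p = 0.788) and -0.42 (adjusted p = 0.666). TTR, which carries retinol with its binding protein in plasma, was lower in A by -1.32 (adjusted p = 0.00165), and by -1.46 (adjusted p = 0.00703) with the block. The TTR call was lost on A1 filters alone (-1.40, adjusted p = 0.0929) and after quantile normalization (-0.74, adjusted p = 0.0797). Of 11 carnitine genes 3 had a symbol. BBOX1, which makes carnitine from the product of ALDH9A1, was higher in T than in P by 1.08 (adjusted p = 0.0135), and by 1.23 (adjusted p = 0.123) with the block. CROT, the peroxisomal carnitine octanoyltransferase, was higher in T by 1.97 (adjusted p = 3.34e-05) and in A by 1.50 (adjusted p = 0.00113), and with the block by 1.95 (adjusted p = 0.00599) and 1.48 (adjusted p = 0.0137). On A1 filters alone CROT was called in T (1.95, adjusted p = 0.0237) but not in A (1.49, adjusted p = 0.128). SHMT2, a mitochondrial serine hydroxymethyltransferase, was lower in A by -0.77 (adjusted p = 0.00872), and by -0.82 (adjusted p = 0.0439) with the block. The SHMT2 call was lost on A1 filters alone (-0.79, adjusted p = 0.159) and after quantile normalization (-0.55, adjusted p = 0.0718). Over the 24 genes of all 5 lists, 12 were called between T and P, a share near the 47.3% of genes with a symbol. With the block or on A1 filters alone 3 were called, against 3.46% and 2.78% of genes with a symbol. Between A and P 17 were called, 12 with the block, and 3 on A1 filters alone. The shares of genes with a symbol called were 38.5%, 9.78%, and 3.01% in the same order.

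**Figure D4:**
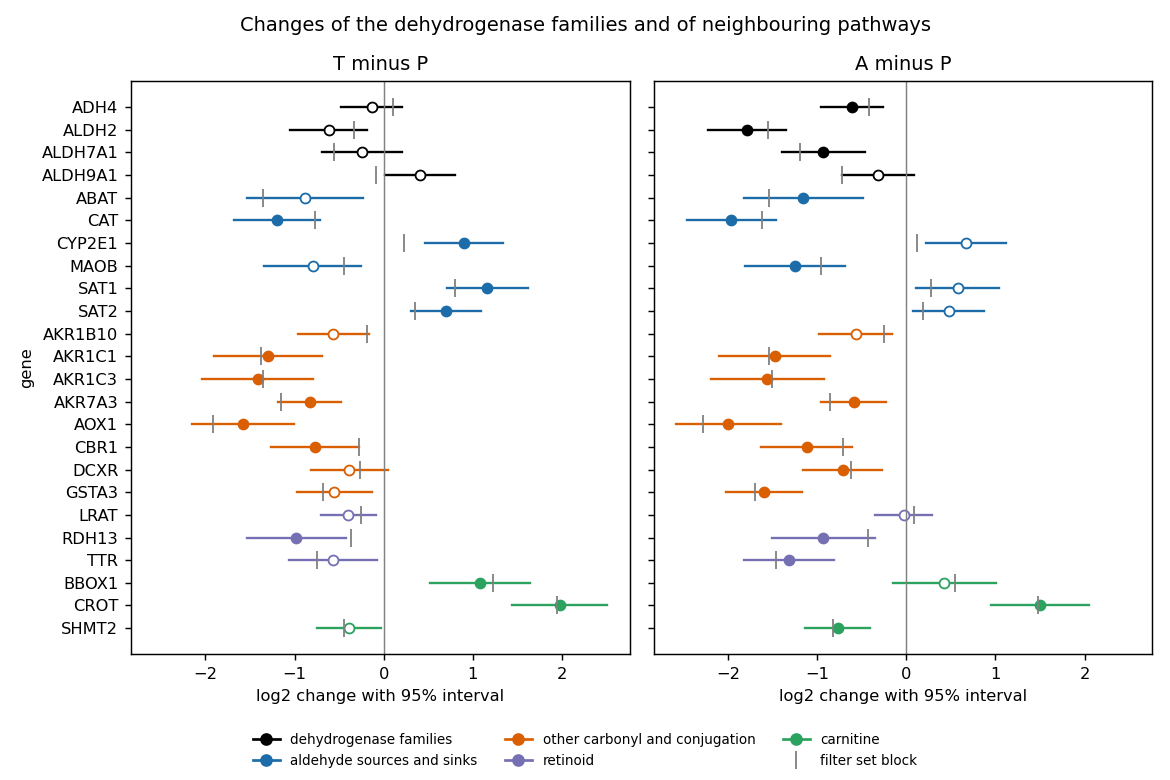
Log2 changes (x axis) with 95% intervals for the 24 genes with a symbol (y axis) from the dehydrogenase families and 4 neighbouring lists, filled where the adjusted p from limma is under 0.05, with a grey tick for the change under the filter set block. In A, 16 of the 17 called genes are below 0, and CROT is the called gene above 0. Of all genes with a symbol, 351 were called lower and 161 higher in A than in P. Without division by the array median, 8 of the 24 genes were called lower and 6 higher, and the median change over genes with a symbol was 0.33.

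Other probes moved with ADH4, ALDH2, and ALDH9A1 across the arrays, which share scaling, filter set, and state. For ALDH2 the 3 genes with a symbol whose log2 levels were most alike were GSTA3 (Pearson's r = 0.870 over 24 arrays), FMO4 (0.850), a flavin monooxygenase, and CYP2D6 (0.832), a drug-oxidizing cytochrome P450. On the 18 A1 arrays these were 0.859, 0.833, and 0.791. For ADH4 they were TBC1D5 (0.814), NDUFB6 (0.806), a subunit of respiratory complex I, and GPATCH1 (0.770), with 0.789, 0.787, and 0.802 on A1 arrays. For ALDH9A1 they were RIMS2 (0.789), TMEM205 (0.741), and BPHL (0.730), a serine hydrolase. On A1 arrays the values for ALDH9A1 were lower, at 0.744, 0.660, and 0.700. Among the members, r was 0.70 for ADH4 and ALDH2 and 0.62 on A1 filters, 0.25 for ALDH2 and ALDH9A1 and 0.55 on A1 filters, and -0.03 for ADH4 and ALDH9A1 and 0.12 on A1 filters. The median over all 9406 other probes was 0.05 for ADH4, 0.06 for ALDH2, and 0.03 for ALDH9A1.

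Markers of liver and of other cells were followed beside these results. Of 18 hepatocyte markers, 7 had a symbol, and their summed level, in multiples of the array median, was 406 to 703 in A (median 580), 483 to 1291 in T (median 746), and 624 to 941 in P (median 706). Of these 7, 3 were lower in A than in P and 0 higher, namely APOA2 (-1.11, adjusted p = 0.00261 from limma), TTR (-1.32, adjusted p = 0.00165), and SERPINA1 (-0.81, adjusted p = 0.0414), while ALB was at 0.15, APOB at -0.15, FGB at -0.78, and ASGR2 at 0.06 (adjusted p 0.135 to 0.882). Of all genes with a symbol, 38.5% were called between A and P, 161 higher and 351 lower. The SERPINA1 call was lost with the block (adjusted p = 0.190). On A1 filters alone or after quantile normalization 0 of the 7 were called in A, against 3.01% and 26.9% of genes with a symbol. In T, APOB (0.71, adjusted p = 0.00750) and ASGR2 (0.64, adjusted p = 0.0339) were higher than in P and FGB (-1.28, adjusted p = 0.0132) was lower, and 0 of the 7 were called with the block. Between T and P, 47.3% of genes with a symbol were called, and 3.46% with the block.

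Of the blood markers HBA2 had a symbol, with levels of 0.402 to 2.42 times the array median in A and 1.55 to 2.42 times in P, a log2 change of -1.08 (adjusted p = 0.0773 from limma). LYZ, of the immune list, ranged from 2.54 to 7.40 in A and from 3.62 to 18.4 in P and was lower in A by -1.14 (adjusted p = 0.0353). ACTA1, of the muscle list, was below the array median on every array and was higher than in P by 1.35 in T (adjusted p = 0.00879) and 1.10 in A (adjusted p = 0.0358). Of the stellate and fibroblast markers, DCN was higher in T by 0.70 (adjusted p = 0.0407) and LUM lower in A by -0.77 (adjusted p = 0.0411), with a median summed level of 2.03 in A, 2.13 in T, and 2.62 in P. SOX9, of the biliary list, was lower in T by -0.51 (adjusted p = 0.0385). With the block, 0 of these markers of other cells were called against P, and of 6 endothelial markers 0 had a symbol. The part of these markers in the lower scaled levels of ALDH2 and ADH4 in A was not tested.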

How the data were processed

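For each of 24 AGS livers, the authors deposited spot and local background intensity (median and mean pixels), which the file headers credit to ImaGene 6.1.0. They also deposited the ratio of background-subtracted signal to the array median, on a linear scale with a floor of 0.002 (2299 of 230400 spots). The ratio was recomputed from the medians and lay within 4.98e-07 of the deposited one at other spots. Spots at or below 0 (668) were missing values. The paper's additional file gives symbols with the mean of each state, which matched probes one to one (1329 of 1329, tolerance 1e-04). Its fold changes and p-values were not used.

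Groups follow the labels. Limma 3.58.1 in R 4.3.3 (lmFit, eBayes) was fitted over 3 states, or 5 status groups for stages, on all probes with Benjamini-Hochberg adjustment, and called at 0.05. The fits were checked on simulated data. The exact tests were computed with numpy 2.4.6 over all regroupings of the arrays, and pandas 2.3.3 and matplotlib 3.10.9 served for tables and plots. The members and lists were chosen with earlier results of these data known. Named are the 3 members, family genes with a symbol, up to 4 called genes per other list and comparison, the markers with a symbol where given, and the 3 probes with a symbol most alike to each member. The alternatives were normexp (offset 50), mean pixels, no background subtraction, quantile normalization, the deposited ratio, leaving out probes not over 2 times background on at least 7 arrays, filter set or identifier prefix (04 against others) as a block, A1 filters alone, 5 groups, the methods' test (ANOVA, Tukey's HSD, and Storey's q), and leaving out each array. The prefix 04 was carried by 1 P, 7 A, and 7 T animals and other prefixes by 6 P, 1 A, and 2 T animals. Prefix therefore also nearly follows state in comparisons with P. Division by the 75th percentile and no scaling were added after the data were seen. The paper states that the RNA samples were handled in 1 batch. Whether arrays of a group come from separate rounds of hybridization is not stated further, and the number of arrays limits precision. Sequences of the probes and proteins were not analysed here.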

Additional observations from a re-analysis of the deposited data

How the results depend on the processing

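For ALDH2, the fall from P to A and the rise from A to T kept their direction and call under all 13 alternatives and without any 1 array. With 1 array left out the log2 changes were -1.87 to -1.68 and 1.07 to 1.27. With the filter set block the changes were -1.56, outside this range, and 1.22, within it. Under quantile normalization they were -1.40 and 0.88, both outside. ALDH2 between T and P passed in the fit of 5 groups (-0.62, adjusted p = 0.0428) and in the methods' test (0.0227), and lay at -0.69 to -0.51 with 1 array left out. From late torpor to early arousal it was no longer called under quantile normalization (-1.15) or with no scaling (-0.99). Between early and late torpor its change turned to -0.058 under normexp, -0.0042 under quantile normalization, and -0.22 with no scaling, and ranged from -0.058 to 0.28 with 1 array left out, turning without early torpor 04-16 (-0.035), late torpor 04-06 (-0.058), or late torpor 04-36 (-0.0027). ADH4 between A and P was no longer called under normexp (-0.33), quantile normalization (-0.058), the filter set block (-0.42), A1 filters only (-0.44), the identifier prefix block (-0.56), no scaling (-0.0086), and the 75th percentile (-0.49), with -0.69 to -0.53 over the arrays left out. ADH4 between T and P turned to 0.10 with the filter set block, 0.087 on A1 filters, and 0.11 with no scaling (-0.21 to -0.083 over the arrays left out). ADH4 between T and A was called by the methods' test (0.48, adjusted p = 0.0124), with 0.40 to 0.56 over the arrays left out, and from late torpor to early arousal turned to 0.037 under quantile normalization and 0.0044 with no scaling. ALDH9A1 between T and P turned to -0.081 with the filter set block and -0.0026 on A1 filters, and between A and P to 0.055 under quantile normalization and 0.28 with no scaling. ALDH9A1 between T and A was called by the methods' test (0.72, adjusted p = 0.00179), on mean pixels (0.75), and with the block (0.64), with 0.62 to 0.79 over the arrays left out. Late minus early torpor of ALDH9A1 was -0.14 with no scaling. The ratio of ALDH2 over ADH4 was called in none of the 3 comparisons of states on A1 filters. The ratio of ALDH9A1 over ADH4 turned on A1 filters, to -0.090 for T minus P and -0.18 for A minus P. The cause was not tested.

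Without scaling, the median over all probes moved to 0.23 between T and P, 0.55 between A and P, and -0.32 between T and A, so changes there are read relative to these values. Probes called between T and P numbered 946, against 543 under normexp, 93 with the filter set block, 86 on A1 filters, 524 with the prefix block, and 550 (without P 2000-10) to 1490 (without P 2000-13) with 1 array left out. Between A and P they numbered 813, against 1264 by the methods' test, 1752 under normexp, 260 with the filter set block, 84 on A1 filters, 243 with the prefix block, 4659 with no scaling, and 477 (without P 2000-10) to 1546 (without late arousal 04-30) with 1 array left out. Between T and A they numbered 45, against 606 by the methods' test, 158 on mean pixels, 17 under quantile normalization, 124 with the filter set block, 132 on A1 filters, 266 with no scaling, and 24 (without late torpor 04-36) to 101 (without late arousal 04-30) with 1 array left out. The split of calls between A and P was 251 higher and 562 lower, but 293 and 283 under quantile normalization, 513 and 348 with the 75th percentile, and 4544 and 115 with no scaling. Between T and A it was 37 and 8, but 4 and 13, 10 and 20, and 4 and 262 in the same order. From late torpor to early arousal, 64 probes were called (1 higher and 63 lower), against 709 under normexp, 177 on mean pixels, 2 under quantile normalization (1 and 1), 148 with the filter set block, 140 on A1 filters, 28 with the prefix block, 540 with no scaling (538 and 2), 18 with the 75th percentile (4 and 14), and 11 (without early arousal 04-84) to 92 (without late arousal 04-30) with 1 array left out. No paired analysis was possible because each array came from a different animal, sampled in 1 state.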
